A study of Mus musculus with 6 samples.

Results

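The mitochondrial carriers of the Slc25 family were followed through a microarray comparison of mouse CD4+ T cells. The members are all genes whose symbol starts with Slc25a and a number in the probe set annotation, with Slc25a37 left out, and each gene is represented by its brightest probe set that names 1 gene. This gave 45 genes, measured by 49 probe sets, of 19937 genes named this way on the array. Of the 45, 39 had a mean level high enough to be tested, and both group means of each of these lay above that filter level, so none was tested on the strength of 1 group alone.

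The arrays compared CD4+ T cells of wild-type (WT) mice with those of mice lacking cystathionine beta-synthase (CBS-KO), an enzyme that turns homocysteine into cystathionine and makes hydrogen sulfide. All animals were labelled C57BL/6 and 6 weeks old, no treatment was named, and each group held 3 arrays that the labels call biological replicates. The knockout allele, whether it acts in all tissues, and how the cells were purified are points not given in the sources used here. Levels are log2(intensity + 16), differences are CBS-KO minus WT on that scale, and p-values are from limma with Benjamini-Hochberg adjustment over 20856 probe sets, with a threshold of 0.05.

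Slc25 proteins are built from repeated membrane-spanning modules and sit mostly in the inner mitochondrial membrane, where each exchanges a particular metabolite between the matrix and the cytosol. They supply ADP and phosphate to ATP synthase, carry the acids and amino acids of the citrate cycle and its shuttles, and bring in cofactors that the matrix cannot make. In T cells the resting state and the dividing state draw on these routes to different extents, and red cell precursors use some of them for haem synthesis.

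The cells and animals differed between the groups in ways that touch the results below. All 12 measured CD4 T cell markers were above the filter level on at least 1 array, among them Cd4 at a mean of 13.34 in WT and 12.77 in CBS-KO cells, and 5 of the 12 were lower in CBS-KO cells. Their summed intensity ran from 66923 to 72072 in WT and from 34910 to 55235 in CBS-KO arrays. Markers of other cells were higher in CBS-KO cells, namely 12 of 14 neutrophil genes (summed intensity 1830 to 3356 in WT and 28624 to 37507 in CBS-KO arrays), 12 of 13 tested monocyte and macrophage genes (3286 to 5749 and 18339 to 24794), and all 9 measured erythroid genes (2174 to 4236 and 17892 to 41691). Of 24 cell cycle genes 9 were higher (23624 to 31125 and 40048 to 100777). Of 8 NK cell genes 4 were higher and 1 lower, of 4 platelet genes 1 was higher, and limma called 0 of 9 B cell and 0 of 2 CD8 T cell genes (0 in either list at an unadjusted p under 0.05). The B cell sum ran from 7544 to 11127 in WT and from 4446 to 17006 in CBS-KO arrays, and the CD8 sum from 1313 to 1406 and from 828 to 2246, with CBS-KO 2 above WT and the other CBS-KO arrays below it in the mean of each list. No marker of these lists was listed at 0. Xist and Eif2s3y levels were those of females in WT 1 to 3 and CBS-KO 3 and of males in CBS-KO 1 and 2, so sex and genotype were partly confounded. In bulk RNA, fewer cells of a type and less RNA per cell cannot be told apart, and the part that other cell types, division or sex play in the values below was not tested except where stated.

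As a family the carriers did not move one way. The median difference of the 39 tested members was 0.01, beside -0.05 over all 20856 tested probe sets. Values were positive in 20 members and negative in 19 (48.7%), where 57.2% of all tested probe sets were negative. limma called 5 members, 12.8% of those tested, where 9.57% of all tested probe sets were called. Slc25a21, Slc25a39 and Slc25a42 rose, against a background of 5.09% called higher, and Slc25a23 and Slc25a45 fell, against 4.47% called lower. At an unadjusted p under 0.05 there were 16 members, beside 30.9% of all tested probe sets. With 1 array fewer, the count of calls moved over the whole array and among the members. limma called 0 members when any WT array or CBS-KO 1 was left out (11 or 12 at an unadjusted p under 0.05), where 0.446%, 0.345%, 3.21% and 0.791% of all tested probe sets were called without WT 1, WT 2, WT 3 and CBS-KO 1. It called 2 members (5.13%) without CBS-KO 3, beside 6.51% of all probe sets, and 14 (35.9%) without CBS-KO 2, beside 30.8%. The shares called lie near the background, so the count of calls is not a result about the family. In 21 of the 39 members (53.8%) the groups did not overlap, where the figure over all tested probe sets was 36.7%. All CBS-KO arrays lay above all WT arrays for 11 of these members (background 15%) and below them for 10 (background 21.7%).

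**Figure D1:**
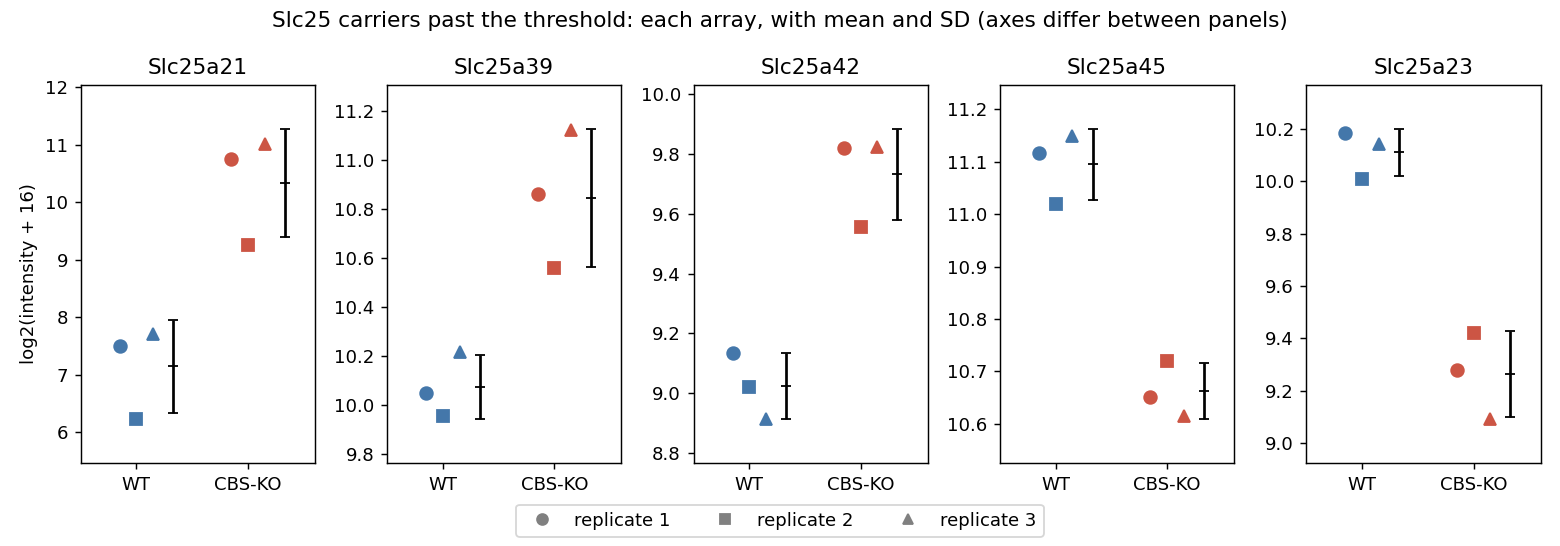
Level of each array, as log2(intensity + 16), for the 5 carriers past the threshold; points are arrays (shape gives the replicate number) and bars are the mean and SD of 3 arrays, with axes that differ between panels. In every panel the WT and CBS-KO arrays do not overlap, and the distance is widest for Slc25a21 (3.19).

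Upstream sequences are shown for called members whose window touches no annotated gene, which left 2 of the 5, Slc25a21 and Slc25a42. Both rose, and the same rule left out Slc25a39, which rose too. The windows are the 250 bases before an annotated start in RefSeq (GRCm38.p6), at chr12:57197473-57197722 for Slc25a21 and chr8:70212282-70212531 for Slc25a42, both on the minus strand. Slc25a21 had 2 such starts, of which the first listed is shown, and Slc25a42 had 1. Capitals mark CCAAT on either strand, the box bound by the factor NF-Y.
Slc25a21: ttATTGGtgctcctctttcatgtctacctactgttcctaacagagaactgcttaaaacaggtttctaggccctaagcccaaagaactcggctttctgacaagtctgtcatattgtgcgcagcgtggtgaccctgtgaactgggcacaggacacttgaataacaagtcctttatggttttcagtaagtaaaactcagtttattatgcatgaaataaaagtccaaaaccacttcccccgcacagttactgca
Slc25a42: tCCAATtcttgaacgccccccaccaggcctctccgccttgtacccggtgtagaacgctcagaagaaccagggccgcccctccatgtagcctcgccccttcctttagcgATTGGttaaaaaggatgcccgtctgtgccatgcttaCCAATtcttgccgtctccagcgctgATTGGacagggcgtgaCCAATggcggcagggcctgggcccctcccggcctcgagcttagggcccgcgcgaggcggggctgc
Both sequences hold the box, once for Slc25a21 and 5 times for Slc25a42. The Slc25a42 window has a GC content of 63.6% and that of Slc25a21 of 43.2%, beside a median of 52.4% over 32851 windows of the same length. CCAAT stood on at least 1 strand in 16 of the 36 members with a window (44.4%) and in 33.9% of all windows. The sequence CCACACCC, a form of the box read by the erythroid factor KLF1, stood in 4 of the 36 (11.1%, against 3.2% of all windows), and AGATAA, a form of the GATA site, in 2 (5.56%, against 9.99%). Members were counted on the first window of each gene and the background on every window, with more than 1 for some genes. The shares thus differ in unit, and enrichment was not tested. The 3 motifs do not overlap in the windows shown, where CCACACCC and AGATAA were not found.

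The carriers of citrate cycle acids and of the malate shuttle held the member with the greatest difference. Slc25a21 moves oxodicarboxylates such as oxoadipate, intermediates of lysine and tryptophan breakdown, in exchange for oxoglutarate. The intensities of the 3 WT arrays were 164, 58.8 and 194, those of the 3 CBS-KO arrays 1704, 597 and 2046. On the log2 scale these are 7.49, 6.23 and 7.72 against 10.75, 9.26 and 11.01, in replicate order as in all such lists. Every CBS-KO array was above every WT array, with WT 2 and CBS-KO 2 the lowest of their groups. Slc25a21 rose by 3.19 (SE 0.56, 95% confidence interval 1.85 to 4.53, n = 3 per group, limma adjusted p = 0.0249), which is 9.15-fold on this scale. The WT levels were low, with WT 2 (6.23) below the filter level of 6.99. The size thus depended on the offset, at 3.36 with an offset of 1 and 2.80 with 64. The mean of the 9 erythroid markers relative to WT was 0.12, -0.42 and 0.31 in the WT arrays and 3.40, 2.44 and 3.715 in the CBS-KO arrays, so WT 2 and CBS-KO 2 were the lowest of their groups there too. The cell cycle list stood at 0.05, -0.24 and 0.19 in the WT arrays and 1.69, 0.57 and 2.06 in the CBS-KO arrays. WT 2 and CBS-KO 2 were lowest in that list as well, so this order was not particular to the erythroid markers. Leaving out WT 1 (adjusted p = 0.101), WT 2 (0.0978), WT 3 (0.0554) or CBS-KO 1 (0.101) ended the call, with differences of 2.73 to 3.48 in these fits.

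Other carriers of citrate cycle acids stood above WT without passing the threshold. Slc25a10, the dicarboxylate carrier that exchanges malate or succinate for phosphate, had levels of 8.68, 8.60 and 9.19 in WT and 9.88, 9.34 and 10.10 in CBS-KO arrays, a difference of 0.96 (limma adjusted p = 0.0572). Slc25a1, the citrate carrier that exports citrate for fatty acid synthesis, had 9.92, 9.86 and 10.29 in WT and 10.83, 10.38 and 11.08 in CBS-KO arrays, a difference of 0.74 (0.0676). In both, WT 3 was the highest WT array and CBS-KO 2 the lowest CBS-KO array, and the groups did not overlap. Without CBS-KO 2 both passed, Slc25a10 at 1.17 (limma adjusted p = 0.0114) and Slc25a1 at 0.93 (0.0115), where 30.8% of all tested probe sets were called. Leaving out any other single array gave no call, with adjusted p of 0.0744 to 0.194 for Slc25a10 and 0.0946 to 0.217 for Slc25a1.

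The malate-aspartate shuttle, which moves reducing equivalents into the matrix, showed values on both sides of 0. Slc25a13, the aspartate/glutamate carrier citrin, had 8.84, 8.005 and 9.50 in the CBS-KO arrays against 8.08, 7.97 and 8.38 in WT, and its groups overlapped (0.64, limma adjusted p = 0.282). Its close relative Slc25a12, aralar, had 11.88, 11.94 and 11.84 in WT and 11.77, 11.63 and 11.78 in CBS-KO arrays (-0.16, adjusted p = 0.245). Slc25a11, the oxoglutarate/malate carrier that completes the shuttle, differed by -0.21 (0.279). In Slc25a12 and Slc25a11 the CBS-KO arrays were each below every WT array, by amounts that did not pass the test.

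**Figure D2:**
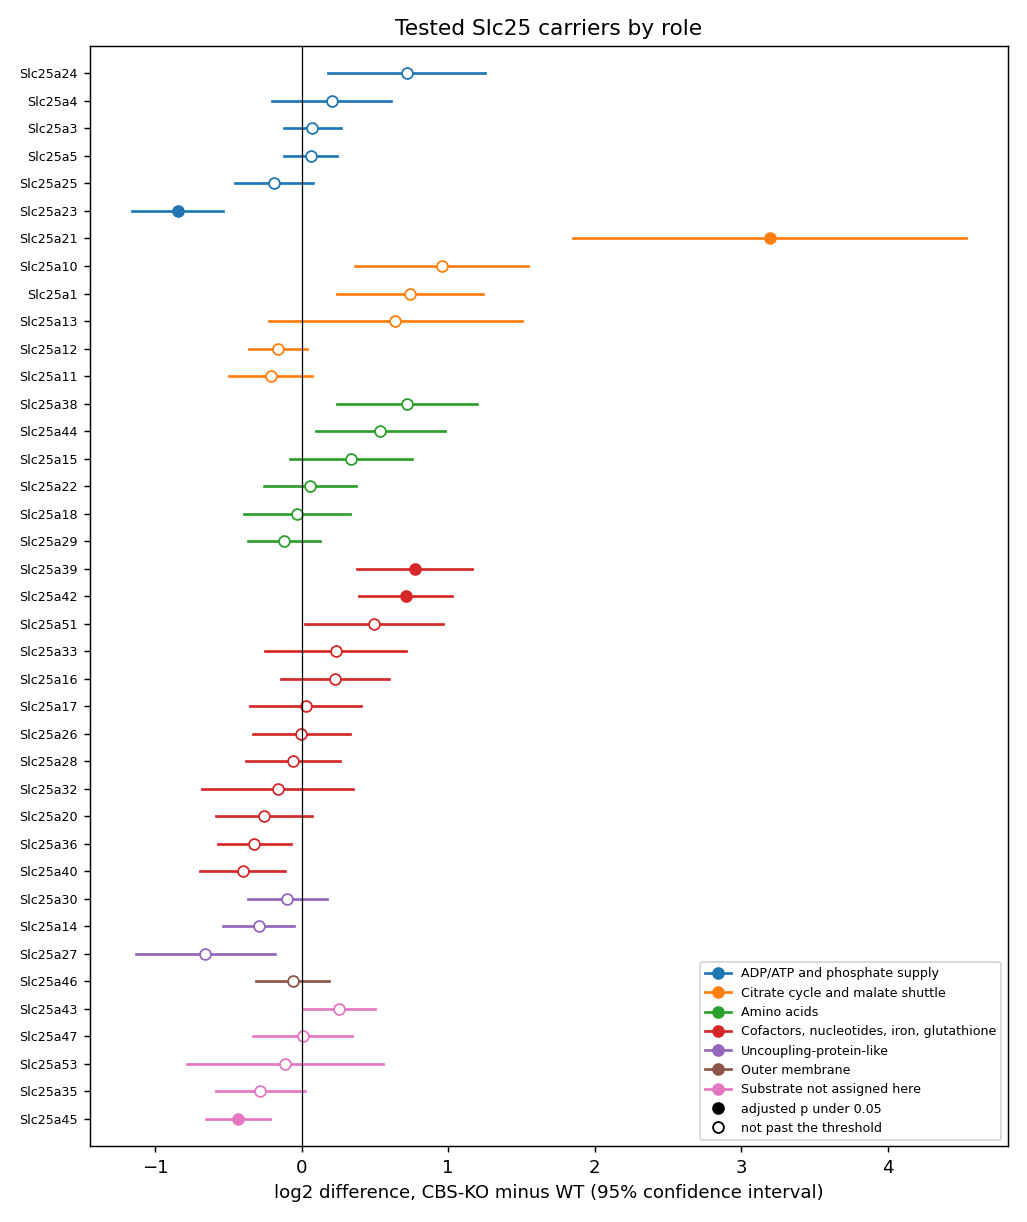
Difference of each of the 39 tested carriers, CBS-KO minus WT in log2 units, with its 95% confidence interval from limma, coloured by role; filled points passed an adjusted p of 0.05. Slc25a21 stands apart at 3.19, and the others lie between -0.85 and 0.96.

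Of the 6 tested carriers of ATP, ADP and phosphate, limma called Slc25a23 alone (16.7%, where 9.57% of all tested probe sets were called). Slc25a5, the widely expressed ADP/ATP carrier, had levels of 13.62, 13.69 and 13.66 in WT and 13.76, 13.57 and 13.81 in CBS-KO arrays, a difference of 0.06 with a 95% confidence interval of -0.12 to 0.24. Its other 2 probe sets gave 0.19 and 0.16, and processed copies of this gene in the genome can share its probes. Slc25a3, the phosphate carrier, differed by 0.07 (interval -0.12 to 0.27), and Slc25a4, the ADP/ATP carrier of heart and muscle, by 0.20 (-0.20 to 0.61). In all 3 the groups overlapped.

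Slc25a23, a carrier that loads the matrix with adenine nucleotides when cytosolic calcium rises, fell. Its levels were 10.18, 10.01 and 10.14 in WT and 9.28, 9.42 and 9.09 in CBS-KO arrays. The groups were well apart and the spread within each was small. The difference was -0.85 (SE 0.13, interval -1.16 to -0.54, limma adjusted p = 0.0184). It was the member with the smallest p-value of the family, and leaving out WT 1 (0.108), WT 2 (0.0881), WT 3 (0.0588) or CBS-KO 1 (0.0869) ended its call, with differences of -0.90 to -0.81. In the same CBS-KO arrays the CD4 T cell markers averaged -0.71, -0.43 and -1.11 against the WT mean.

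Its paralog Slc25a24, a carrier of the same substrates, had 9.72, 9.54 and 9.97 in WT and 10.62, 10.00 and 10.75 in CBS-KO arrays, a difference of 0.72 that missed the threshold (limma adjusted p = 0.0862). CBS-KO 2 was close to WT 3, and the other CBS-KO arrays were clearly above WT. Slc25a25, the remaining calcium-regulated member, differed by -0.19 (interval -0.46 to 0.08). Without CBS-KO 2, Slc25a24 passed at 0.95 (limma adjusted p = 0.00849), where 30.8% of all tested probe sets were called. Leaving out any other single array gave it no call (adjusted p of 0.124 to 0.255).

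Among the cofactor carriers, Slc25a39 and Slc25a42 rose. Slc25a39 imports glutathione into mitochondria and is needed for iron-sulfur proteins and haem synthesis. Its levels were 10.05, 9.96 and 10.22 in WT and 10.86, 10.56 and 11.12 in CBS-KO arrays, all CBS-KO arrays above all WT arrays. Slc25a39 rose by 0.77 (SE 0.16, interval 0.38 to 1.17, limma adjusted p = 0.038). The call ended with the arrays set to a common median (0.0537), with no filter (0.0644), and on leaving out any array but CBS-KO 2 (0.155 for WT 1, 0.155 for WT 2, 0.0773 for WT 3, 0.136 for CBS-KO 1 and 0.0556 for CBS-KO 3), with differences of 0.64 to 0.84.

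Slc25a42 brings coenzyme A into the matrix in exchange for adenine nucleotides. It had 9.14, 9.02 and 8.91 in WT and 9.82, 9.56 and 9.82 in CBS-KO arrays, so CBS-KO 1 and 3 were alike and CBS-KO 2 lay between them and WT. Slc25a42 rose by 0.71 (SE 0.13, interval 0.39 to 1.03, limma adjusted p = 0.0289). Leaving out any array but CBS-KO 2 ended its call (0.112 for WT 1, 0.13 for WT 2, 0.0826 for WT 3, 0.124 for CBS-KO 1 and 0.0519 for CBS-KO 3), with differences of 0.65 to 0.77.

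Slc25a40, the other glutathione carrier, was below WT. Its brighter probe set had 9.60, 9.56 and 9.45 in WT and 9.23, 9.16 and 9.01 in CBS-KO arrays, a difference of -0.40 that missed the threshold (limma adjusted p = 0.0775). Its second probe set had 8.67, 8.48 and 8.47 against 7.98, 7.79 and 7.91, a difference of -0.65 (SE 0.12) that passed (adjusted p = 0.0282). Both probe sets separated the groups, and the mean of the 2 passed as lower (-0.53, adjusted p = 0.0251).

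The remaining 9 cofactor, nucleotide and iron carriers did not pass. Slc25a51, which brings NAD into mitochondria, differed by 0.49 (interval 0.02 to 0.97) and its CBS-KO arrays all lay above WT, at 10.47, 10.11 and 10.85 against 10.06, 10.04 and 9.84. Slc25a36, a pyrimidine nucleotide carrier, differed by -0.32 (-0.57 to -0.08) with all CBS-KO arrays below WT, and its second probe set gave -0.13 with overlapping groups. The S-adenosylmethionine carrier Slc25a26, whose cargo is the methyl donor from which homocysteine, the substrate of CBS, is formed, had 8.41, 8.22 and 8.62 in WT and 8.38, 8.46 and 8.40 in CBS-KO arrays, with an interval of -0.34 to 0.33. The iron carrier Slc25a28 (mitoferrin 2) had an interval of -0.38 to 0.26. The others were Slc25a20, which carries acylcarnitines for fat oxidation (-0.26), the folate and FAD carrier Slc25a32 (-0.17), the peroxisomal cofactor carrier Slc25a17 (0.03), Slc25a16, linked to coenzyme A (0.23), and the pyrimidine nucleotide carrier Slc25a33 (0.23).

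limma called 0 of the 6 tested amino acid carriers (background 9.57%), with 2 at an unadjusted p under 0.05 (background 30.9%). In 3 of the 6, all CBS-KO arrays lay above WT (background 15%). Slc25a38, which imports the glycine used in the first step of haem synthesis, had 10.94, 10.65 and 11.01 in WT and 11.70, 11.17 and 11.88 in CBS-KO arrays. CBS-KO 2 again lay nearest to WT. The difference was 0.72 (interval 0.24 to 1.19, limma adjusted p = 0.0666). Slc25a38 passed without CBS-KO 2 at 0.92 (adjusted p = 0.00715), where 30.8% of all tested probe sets were called. Leaving out any other single array gave it no call (adjusted p of 0.121 to 0.214). Slc25a44, a carrier of branched-chain amino acids, had 10.09, 9.99 and 9.98 in WT and 10.70, 10.15 and 10.82 in CBS-KO arrays (0.54, adjusted p = 0.106), and Slc25a15, the ornithine carrier of the urea cycle, differed by 0.33 (0.246). The glutamate carriers Slc25a22 (0.05) and Slc25a18 (-0.03) and the basic amino acid carrier Slc25a29 (-0.12) had overlapping groups.

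All 3 members that resemble uncoupling proteins had negative differences, where 57.2% of all tested probe sets did. Among these 3 members limma called 0 (background 9.57%), with 2 at an unadjusted p under 0.05 (background 30.9%). Slc25a27, known as UCP4, had 8.44, 8.04 and 7.97 in WT and 7.73, 7.59 and 7.15 in CBS-KO arrays (-0.66, interval -1.13 to -0.18, limma adjusted p = 0.0795), with no overlap and with CBS-KO 3 lowest. Slc25a14, known as UCP5, differed by -0.29 (adjusted p = 0.104) and Slc25a30 by -0.10 (0.605). Slc25a46, which acts in the outer membrane in fusion and division of mitochondria, had 10.60, 10.58 and 10.66 in WT and 10.52, 10.45 and 10.69 in CBS-KO arrays, a difference of -0.06 (interval -0.31 to 0.19) with overlapping groups.

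Of the members given no substrate here, Slc25a45 fell. Its levels were 11.12, 11.02 and 11.15 in WT and 10.65, 10.72 and 10.61 in CBS-KO arrays, with an SD of 0.07 and 0.05 within the groups. The difference of -0.43 (SE 0.09, interval -0.65 to -0.21, limma adjusted p = 0.0379) was the smallest of the called ones and came with a narrow spread. Its call ended with a common array median (0.056), with no filter (0.0572), and on leaving out any array but CBS-KO 2 (0.17 for WT 1, 0.134 for WT 2, 0.104 for WT 3, 0.144 for CBS-KO 1 and 0.0632 for CBS-KO 3), with differences of -0.47 to -0.40. Slc25a35 (-0.28), Slc25a43 (0.26), Slc25a47 (0.01) and Slc25a53 (-0.12) did not pass, and Slc25a53 had 1 and the same value of 8.64 in WT 1, CBS-KO 1 and CBS-KO 2. The 6 members below the filter were Slc25a2, Slc25a31, Slc25a34, Slc25a41, Slc25a48 and Slc25a54, with group means between 5.41 and 6.96 and overlapping groups in each.

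Carriers that share a substrate were compared within each array, since such a ratio does not depend on the array's scale. The ratio of Slc25a39 to Slc25a40 was 0.45, 0.40 and 0.76 in WT and 1.63, 1.40 and 2.11 in CBS-KO arrays (log2), a shift of 1.18. The ratio of Slc25a23 to Slc25a24 was 0.46, 0.47 and 0.17 in WT and -1.34, -0.58 and -1.66 in CBS-KO arrays, a shift of -1.56. Neither ratio overlapped between the groups. That outcome was fixed, since Slc25a39 and Slc25a24 each lay wholly above WT and Slc25a40 and Slc25a23 wholly below it. The difference of Slc25a25 (-0.19) lay between those of its relatives. Ratios of both relatives to Slc25a25 also did not overlap (shifts of -0.66 for Slc25a23 to Slc25a25 and 0.90 for Slc25a24 to Slc25a25). The ratio of Slc25a24 to Slc25a25 was fixed in the same way, as Slc25a25 also lay wholly below WT. The ratio of Slc25a4 to Slc25a5 shifted by 0.14, that of Slc25a12 to Slc25a13 by -0.80, that of Slc25a33 to Slc25a36 by 0.55 and that of Slc25a18 to Slc25a22 by -0.08, all with overlap. For these 8 pairs a two-sided exact permutation test of 3 against 3 arrays cannot go below p = 0.1, so no pair can pass.

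**Figure D3:**
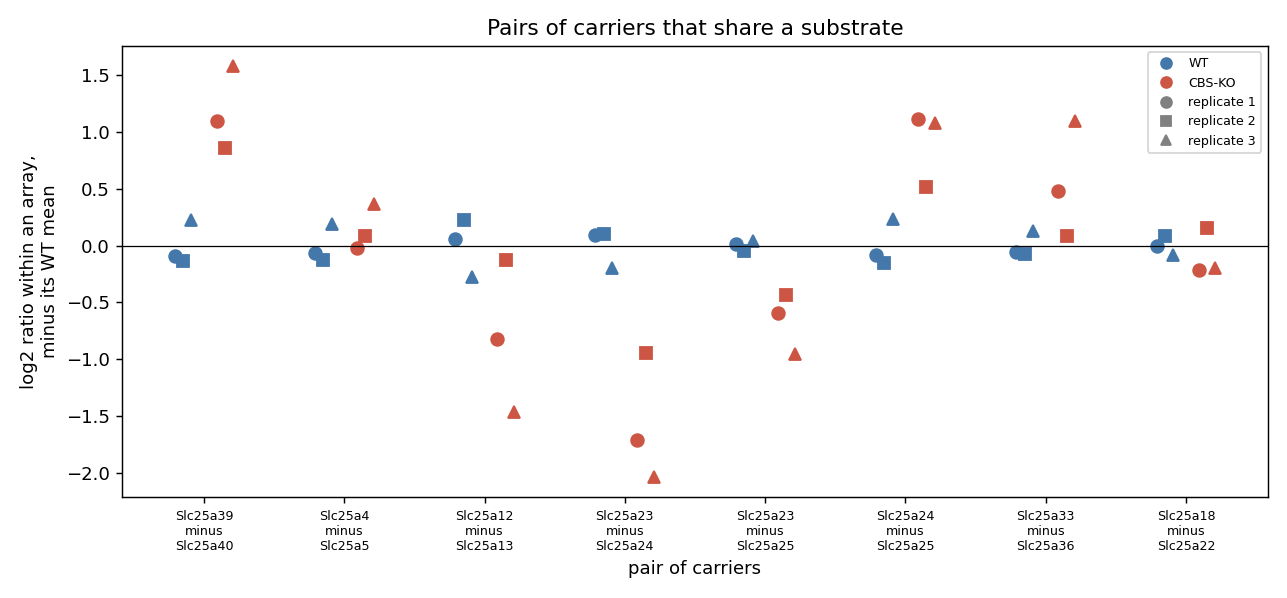
Log2 ratio of 2 carriers within each array, set to the WT mean of that ratio, for 8 pairs that share a substrate; points are arrays, coloured by genotype, with shape for the replicate number. The pairs Slc25a39 with Slc25a40 and Slc25a23 with Slc25a24 separate the genotypes, with shifts of 1.18 and -1.56, while Slc25a4 with Slc25a5 shifts by 0.14. For the pairs with shifts of 1.18 and -1.56 this was fixed, because their members had separated the genotypes in opposite directions.

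The size of the differences varied from array to array in CBS-KO cells. Of the 39 tested members, CBS-KO 2 was the array nearest to the WT mean in 23, CBS-KO 3 in 9 and CBS-KO 1 in 7, and over all tested probe sets CBS-KO 2 was nearest in 50.9%. Among the 20 members with a positive difference, CBS-KO 2 was the lowest CBS-KO array in 18. Of the 11 that lay wholly above WT, CBS-KO 3 was the highest in 10. The shares of these orders over all tested probe sets were not computed, so the counts are not read as a trait of the family. The median absolute distance from the WT mean was 0.22, 0.23 and 0.43 for CBS-KO 1, 2 and 3 over the members, and 0.24, 0.21 and 0.36 over all probe sets. Among the CBS-KO arrays, CBS-KO 2 had the smallest erythroid mean (2.44), the smallest cell cycle mean (0.57) and the CD4 T cell mean closest to WT (-0.43), but the highest monocyte (2.28), B cell (1.06) and CD8 T cell (0.97) means.

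**Figure D4:**
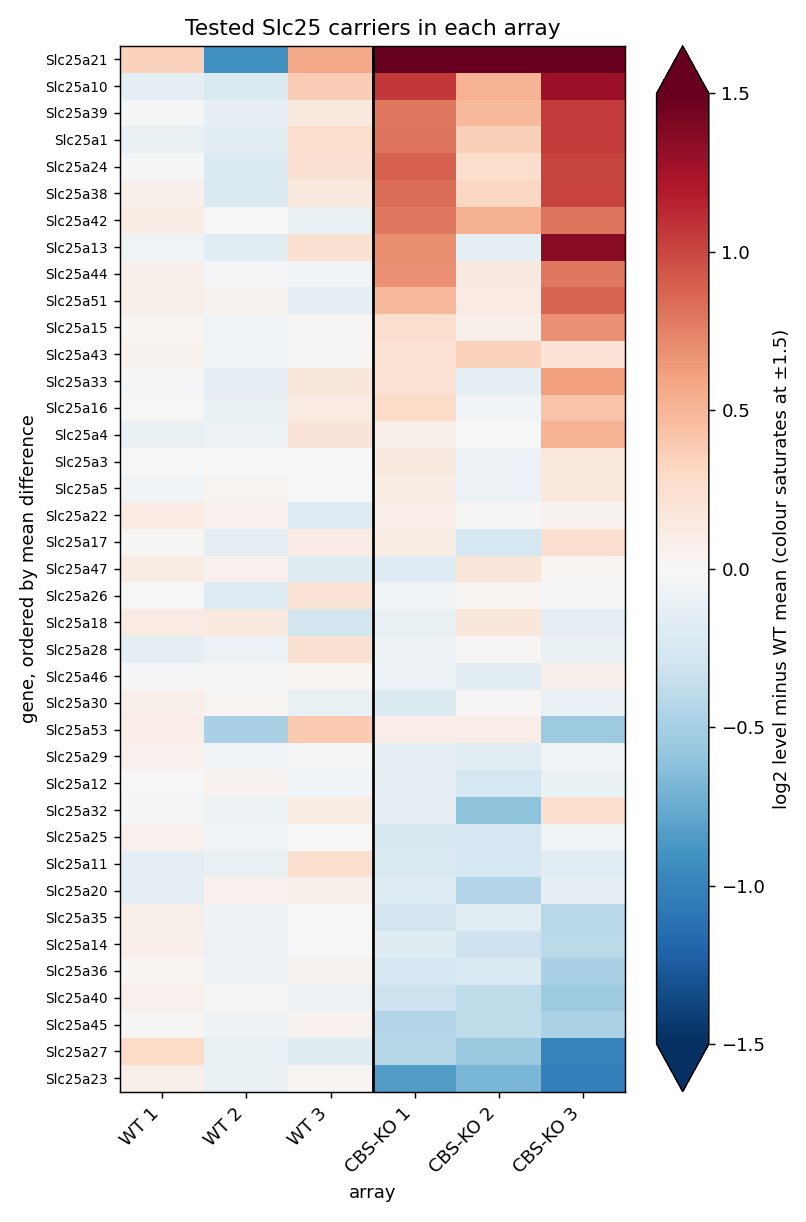
Level of each tested carrier in each array minus its WT mean, in log2 units, with genes ordered by their mean difference and colour saturating at 1.5 in either direction. The positive differences at the top are palest in CBS-KO 2 and darkest in CBS-KO 3, and Slc25a21 runs past the end of the scale in all 3 CBS-KO arrays.

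Among the CBS-KO arrays, CBS-KO 3 had the largest median absolute distance from the WT mean over the members (0.43). CBS-KO 1 was nearest to the WT mean in the fewest members (7). CBS-KO 3 is the female array of its group, and the WT arrays are all female. The part of sex in these distances was not tested. When sex was added to the model, which leaves the genotype estimate to CBS-KO 3 against WT, 11 members were called higher and 4 lower (38.5% of those tested), beside 11.1% and 12.8% of all tested probe sets (23.9% together). That fit assumes that the lone CBS-KO 3 array varies like the others. The X-linked members Slc25a5, Slc25a14, Slc25a43 and Slc25a53 were called in none of the fits, with adjusted p of at least 0.0614.

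Other parts of the mitochondrial transport system were read beside the carriers. Of 13 tested inner membrane transporters outside the family, Abcb10 and Tmem14c rose and Sfxn4 fell, where 9.57% of all tested probe sets were called. Abcb10, a transporter needed for haem synthesis in red cell precursors, had 7.82, 7.43 and 7.996 in WT and 10.53, 9.28 and 11.15 in CBS-KO arrays, a rise of 2.57 (limma adjusted p = 0.0251). Tmem14c, which moves a porphyrin intermediate of haem synthesis, rose by 1.20 (0.0433), and Sfxn4, a sideroflexin linked to iron-sulfur cluster formation, fell by 0.54 (0.0374). CBS-KO 2 was the lowest CBS-KO array for Abcb10 (9.28). The outer membrane channels Vdac1, Vdac2 and Vdac3 had differences of 0.77, 0.25 and 0.49. Of these channels limma called 0 (background 9.57%), with 1 at an unadjusted p under 0.05 (background 30.9%). Of 15 tested genes of the machinery that imports carriers, limma called 0 (background 9.57%), with a median difference of 0.27. At an unadjusted p under 0.05 there were 5 of them (background 30.9%). Of the carrier relatives not named Slc25a, Mtch1 (0.27) and Mtch2 (0.37) did not pass, while Ucp1 and Ucp3 lay below the filter.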

How the data were processed

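The authors deposited 1 linear intensity per probe set and array for 34760 probe sets, by a background correction and normalization not given in the sources used here. Biotinylated cRNA was made, per the labels' protocols, from 6 ug of total RNA. Array medians of log2(intensity + 16) ran from 7.37 to 7.55, and no shift was applied. Probe sets with a mean above the 40th percentile (6.99) were tested with limma (version 3.58.1, moderated by eBayes with an intensity trend, two-sided) under R 4.3.3, checked on simulated data; whether the deposited values were centred, and how, stays unknown. Figures used matplotlib 3.10.9 in Python 3.11.15. Of the array's probe sets 21640 name 1 gene, 1321 several and 11799 none. All 45 members matched RefSeq (GRCm38.p6) by Entrez identifier with the same symbol. Values of every array are given for called members, for the member of greatest difference in a role group with no call, and for others that share a substrate with these or lay near the threshold. Members, lists, pairs and motifs were chosen with earlier results of these data known. The replicate number and sex as model terms, other scalings, offsets, filters and variance models, and each array left out, were the alternatives. With 3 arrays per group, their number limits the precision.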

Additional observations from a re-analysis of the deposited data

How the results depend on the processing

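Against 3 members higher and 2 lower (12.8% called, beside 9.57% of all tested probe sets), 6 were higher when a gene's probe sets were averaged (23.1% called in either direction, beside 18.6% of all genes), 7 with the replicate number as a block (23.1% beside 10.04%), and 11 with sex as a model term, with 4 lower (38.5% beside 23.9%). With a common array median 2 were higher and 1 lower (7.69% beside 9.13%), and with no filter likewise 2 and 1 (6.67% beside 3.24%). With 1 array left out, 0 to 10 members were higher and 0 to 4 lower: limma called 0 on leaving out any WT array or CBS-KO 1 (11 or 12 at an unadjusted p under 0.05), 1 each way on leaving out CBS-KO 3, and 10 and 4 on leaving out CBS-KO 2, where the share of all probe sets called ran from 0.345% to 30.8%. The median difference of the members moved from 0.01 to 0.073 with sex and lay between 0.01 and 0.06 with 1 array left out. No called member changed direction in any alternative run. Slc25a21, Slc25a23 and Slc25a42 kept their calls under every alternative except leaving out single arrays. Under the replicate block Slc25a1, Slc25a10, Slc25a24 and Slc25a38 passed as higher and Slc25a27 as lower, and Slc25a45 was lost (adjusted p = 0.0727). Deviations of same-numbered arrays correlated at 0.06, 0.16 and 0.11 across probe sets, and every array correlated best with its own number, which is a hint from the data and not part of the design. The causes of these shifts were not tested.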
